A study of Mus musculus with 4 samples.

Results

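CD8+CX3CR1+ and CD8+CX3CR1- dendritic cells (DCs) of the mouse spleen were compared across all genes named on 1 array of each. The pair was taken by title from the 4 arrays of the series, which also holds an array titled CD4+ DC and one titled DN DC. The arrays titled CD4+ and DN enter only as context. All cells came from Cx3cr1gfp/+ C57BL/6 mice, in which 1 allele of Cx3cr1 carries the coding sequence of green fluorescent protein, and all carry a label of no BMP4 treatment. Spleens were digested with collagenase D, cells were enriched on magnetic beads for CD11c, an integrin chain that marks DCs, and those highest in CD11c were sorted by flow cytometry. The gates that separated the subsets, the number, age and sex of the mice and any pooling of cells are not stated in the labels. Labelled total RNA was hybridised to Affymetrix mouse arrays of 45101 probe sets, and the values are MAS5 signals, a linear measure of brightness per probe set. There is 1 array on each side, so no difference below has a replicate check, a standard deviation or a test. In sorted bulk samples such as these, fewer cells of a type and less RNA per cell cannot be told apart.

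The transcripts behind the sort were set against the titles first, because the label field for the DC type names CD8+CX3CR1+ for both CD8+ arrays. The same field names CD4+ for the arrays titled CD4+ and DN, for which the titles were used as well, and Cd4 was 564 in CD4+ and 93.9 in DN cells. Cx3cr1, the receptor for the membrane-bound chemokine fractalkine, had a signal of 894 against 97.3, the first value in each such pair being that of the CD8+CX3CR1+ array and the second that of the CD8+CX3CR1- array, called the CX3CR1+ and the CX3CR1- array from here on. Cd8a, the CD8 alpha chain, was 2530 against 4742, with <55.7 in CD4+ and 130 in DN cells, where <55.7 stands for a signal under the floor of the measurement. Both genes were thus placed as the titles say. Cd8b1, the beta chain that T cells pair with the alpha chain, was 192 against <55.7. Itgax, the CD11c chain, was 4399 against 3271. Xcr1, Itgae and Irf8, which define CD8 DCs in most studies, were <55.7 against 519, 105 against 1130 and 1409 against 13285. All 3 of these markers were lower on the CX3CR1+ array, and Xcr1 was under the floor there.

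Signals under 55.7 were treated as not measured and raised to that floor, the 90th percentile over 127 probe sets of smell, taste and pheromone receptor genes and of hair keratin partners. On single arrays this percentile was 46.9 (CX3CR1+) and 62.6 (CX3CR1-), so folds against CX3CR1- values up to 62.6 are best read as bounds. Where either value is under the floor, less than 4-fold means less than 4-fold against the floor, and the fold itself may be larger. Above the floor were 41.7% and 41.0% of the probe sets, so the arrays were alike in this. For Gapdh the 3'/5' ratio, which rises as RNA breaks down, was 8.98 against 8.33, and for beta-actin 2.32 against 1.79. Both arrays were thus brighter at the 3' than at the 5' probe sets of these genes, most so for Gapdh. What this does to probe sets far from the 3' end was not tested.

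Splenic DCs sample antigen and present it to T cells. CD8 DCs, also called cDC1, depend on the transcription factors IRF8, BATF3 and ID2, take up dying cells and are known for presenting what they take up on MHC class I. DCs of the CD4 and CD11b type, also called cDC2, depend more on IRF4 and present mainly on MHC class II, and plasmacytoid DCs depend on the E protein TCF4 and are known as makers of type I interferon. CX3CR1 is found on monocytes, macrophages and part of the DCs, and in these mice the green fluorescence shows where its promoter is active.

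Of 18193 named genes, 10710 lay above the floor on at least 1 of the 2 arrays, and only these were compared. On both arrays 8366 did, on the CX3CR1+ array alone 1245, and on the CX3CR1- array alone 1099. At least 4-fold higher on the CX3CR1+ array were 210 genes (1.96% of those compared), and at least 4-fold lower were 145 (1.35%), together 3.31%. At 2-fold the counts were 973 (9.08%) and 733 (6.84%). The median log2 difference, CX3CR1+ minus CX3CR1-, was 0.01. Of all 10710 genes compared, 5461 lay above 0 and 5247 below 0. Of the 4-fold differences, 77 higher and 42 lower ones are bounds, because the other array was under the floor. Lst1 (4.01-fold), Klhl24 (4.02-fold) and Ift140 (4.02-fold) lay just inside it on the higher side and Tespa1 (3.99-fold) and Adgre4 (3.94-fold) just outside, while Man1a2 and Mrpl42 (4.01-fold) lay just inside on the lower side and Glce (3.99-fold) and Nudt17 (3.96-fold) just outside. A gene is represented by 1 probe set, the one brightest on average over all 4 arrays. Of the 355 called genes 165 have other probe sets too, and for 150 of these all lie on the same side. Each call was repeated under other settings, and of the genes named below those that came to lie under 4-fold are given in a paragraph that names them. The settings were the mean over all probe sets of a gene, which dilutes a gene whose other probe sets lie at the floor, a pseudocount of 50 added to the signals, a floor at the 95th percentile, the higher of both arrays' own floors, quantile normalization, equal medians, and leaving out multi-match probe sets, whose suffix (_x, _s or _a) marks probes that match more than 1 transcript.

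**Figure D1:**
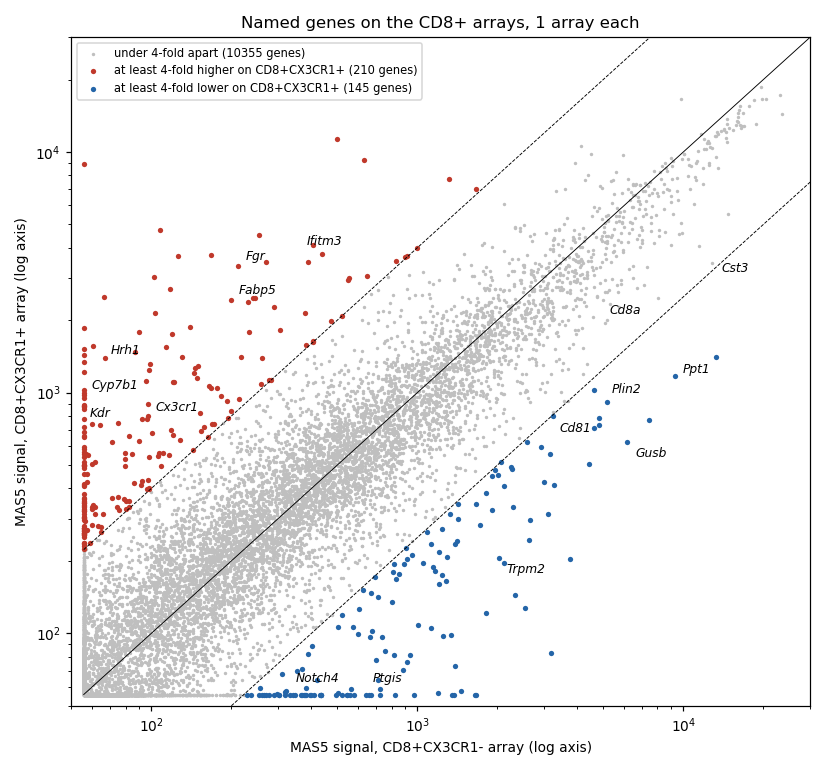
MAS5 signal of each of the 10710 genes compared, CX3CR1- array on the horizontal and CX3CR1+ array on the vertical axis, both logarithmic; the solid line marks equal signals, the dashed lines 4-fold differences, and the rows of points at the left and bottom edges are values raised to the floor of 55.7. The 210 red genes lie 4-fold or more above the line and the 145 blue genes below it, and Cd8a lies between the dashed lines.

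The genes were read by function through 65 lists, which together hold 107 of the 210 higher and 54 of the 145 lower genes. Medians of the lists ranged from 3.36 for markers of CD4 and CD11b DCs to -2.90 for markers of CD8 DCs, on the log2 scale, and with probe sets averaged these medians were 2.14 and -2.54. Next to these came the Ms4a and Tmem176 families (3.16), the Cd300, SIRP and related receptors (1.96) and the C-type lectins (1.95) on the higher side, and mitosis (-0.86), MHC class I and peptide loading (-0.67), proteasome subunits (-0.58) and protein folding in the endoplasmic reticulum (-0.58) on the lower. For 51 of the 65 lists the median kept its sign under all 9 other settings of scaling, floor and probe set choice.

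**Figure D2:**
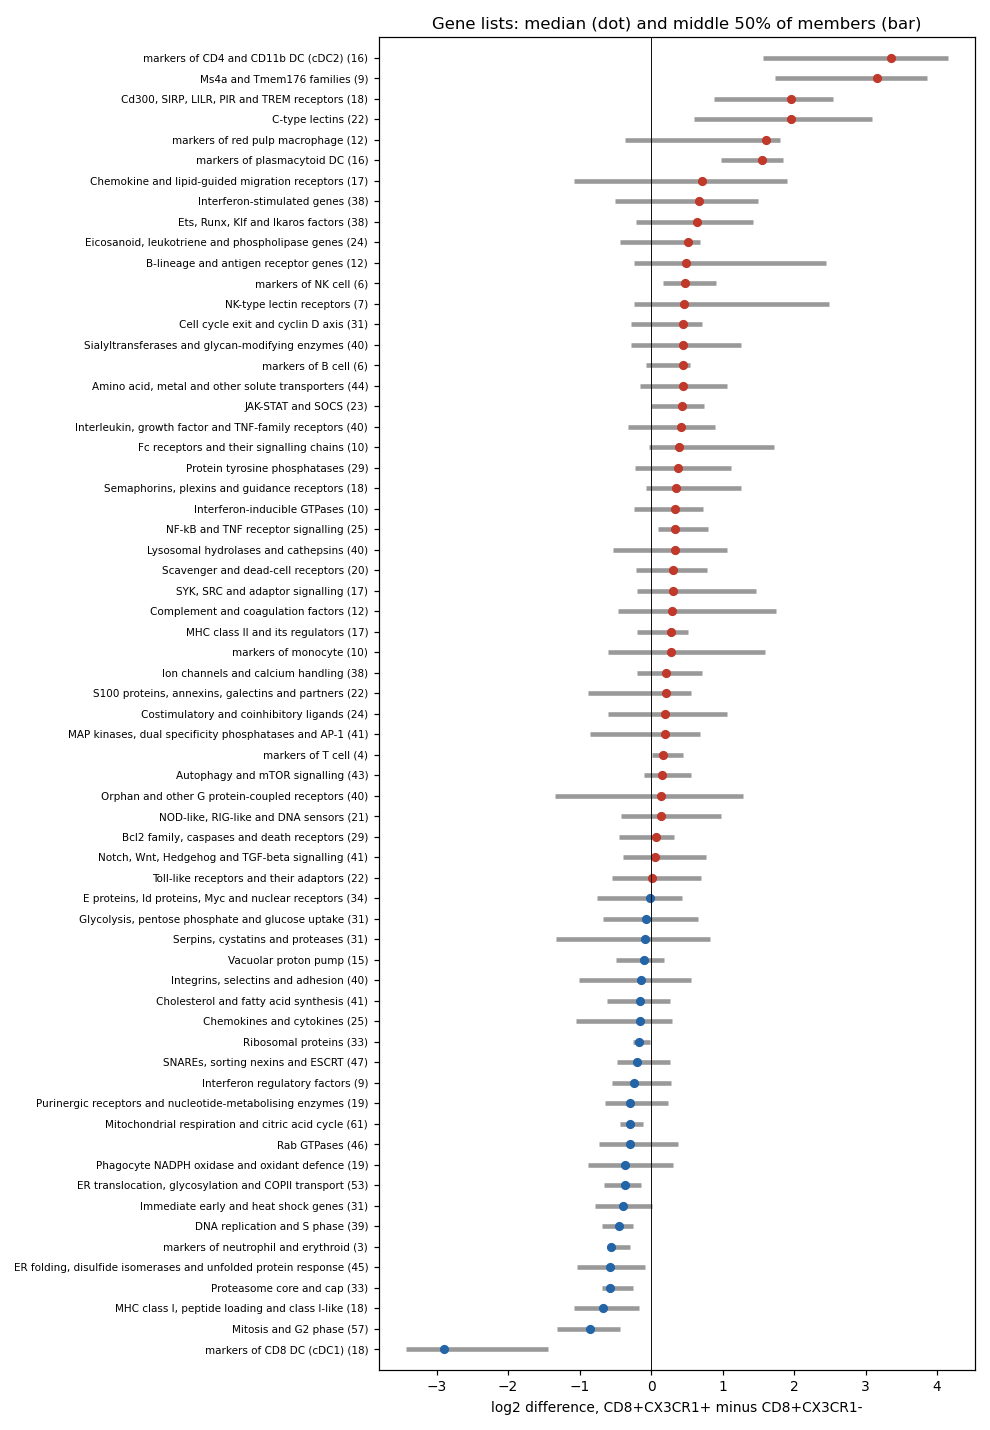
Median log2 difference (dots) and middle 50% of the members (bars) for the 65 gene lists but 1, CX3CR1+ minus CX3CR1-, with the number of members above the floor in brackets. The 4 lists with the highest medians are markers of CD4 and CD11b DCs, the Ms4a and Tmem176 families, the Cd300 and related receptors and the C-type lectins; the lowest is that of CD8 DC markers at -2.90.

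Fc receptors and the kinases and adaptors that act on immunoreceptor tyrosine motifs differed at 4-fold in 4 genes of 2 lists, all of them higher on the CX3CR1+ array. Of 10 Fc receptor genes above the floor, 1 was at least 4-fold higher and 0 were lower (median 0.39). That gene was Fcer1g, whose product is the gamma chain that carries the signal for several Fc receptors and lectins, at 3693 against 126 (29.4-fold). The Fc receptors Fcgr4 (278 against 97.1), Fcgr3 (193 against <55.7) and the related Fcrl1 (785 against 209) were higher by less than 4-fold, and the neonatal receptor Fcgrt (716 against 1000) and Fcrla (86.7 against 142) were lower. Among 17 genes of the SYK and SRC kinases and their adaptors, 3 were at least 4-fold higher and 0 lower (median 0.30). Fgr, a SRC-family kinase of myeloid cells, was 3372 against 211, with 3193 in CD4+ and 2787 in DN cells, so the CX3CR1- array alone was low. Blnk, the adaptor that links SYK to its targets in B cells, was 334 against <55.7, with <55.7 in CD4+ and 78.8 in DN cells, so the CX3CR1+ array alone was high. Ptpn6, the phosphatase SHP-1 recruited by inhibitory receptors, was 4.08-fold higher (3660 against 897). Syk itself was 1687 against 795 the kinase Tec 465 against 168 and the adaptor Pag1 671 against 185, while the kinase Btk (314 against 663) and the lipid phosphatase Inpp5d, also called SHIP-1 (639 against 1490), lay lower by less than 4-fold. Outside the list, the adaptor Grap was 235 against <55.7, and Clnk, an adaptor related to Blnk, was the other way round at <55.7 against 394. Of the genes in this paragraph, Ptpn6 was under 4-fold with probe sets averaged, Grap and Ptpn6 with the pseudocount, and Grap with the floor at the 95th percentile and with the higher of the 2 arrays' own floors.

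The paired receptors of the myeloid surface were among the receptor groups with the widest difference. Of 18 genes of the Cd300, SIRP, LILR, PIR and TREM group, 9 were at least 4-fold higher, 1 was lower, and 16 lay above 0 (median 1.96, and 1.42 to 2.20 under the other settings). Members among the 9 that are classed as inhibitory were Sirpa, the receptor for CD47 (731 against 64.1), Cd300a (1048 against 177) and Cd300lf (1112 against 122). Siglecg (824 against 153) and Cd200r1, the receptor for CD200 (256 against <55.7), are classed so too. Cd33, also among the 9, was 488 against <55.7 and is put in neither class here. The activating partners were Sirpb1a at 1224 against <55.7, Pilrb1 at 314 against <55.7 and Cd300lb at 292 against 56.4. Activating and inhibitory members thus stood on the same side. For 7 of the 9 the CD4+ and DN arrays also lay above the CX3CR1- array by at least 4-fold, and Cd33 was the member furthest above them (136 in CD4+ and 146 in DN cells). Siglech, a receptor used as a marker of plasmacytoid DCs, was 206 against 63.6 and under the floor on the CD4+ and DN arrays. Treml4, a receptor that binds dying cells, was the 1 member lower by 4-fold, at 196 against 2124. Pirb (2192 against 746) and Lair1 (299 against 90.6) were higher by less than 4-fold. Among these receptors, Cd200r1, Cd300a and Sirpa were under 4-fold with probe sets averaged and Cd200r1 and Cd300lb with the pseudocount and with the floor at the 95th percentile.

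**Figure D3:**
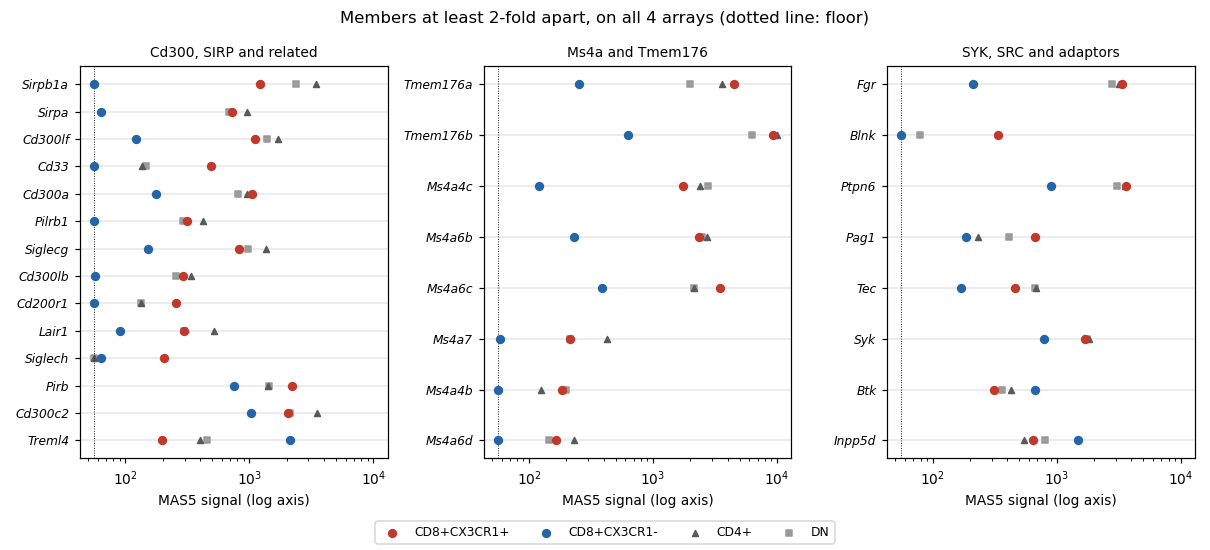
MAS5 signal (logarithmic axis) on all 4 arrays of the members at least 2-fold apart in 3 lists, ordered by difference; red and blue circles are the CX3CR1+ and CX3CR1- arrays, triangles the CD4+ and squares the DN array, and the dotted line is the floor of 55.7. Red circles lie with the triangles and squares in most rows, for example Fgr (3372, 3193 and 2787), and the blue circle stands apart at 211.

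C-type lectins, receptors that bind sugars of microbes and of the host, gave 11 genes at least 4-fold higher and 1 lower among 22 above the floor (median 1.95, or 1.0 with probe sets averaged). The 4 Cd209 genes above the floor, relatives of human DC-SIGN, were all among the 11. Cd209d was 1336 against <55.7, Cd209a 996 against <55.7, Cd209e 951 against <55.7 and Cd209c 415 against <55.7. Cd209a was similar on the CD4+ and DN arrays (651 and 768), whereas Cd209d was highest by far on the CX3CR1+ array (69.2 in CD4+ and 179 in DN cells), as was Cd209e (<55.7 in CD4+ and 188 in DN cells). Of the Dectin and Dcir group, Clec7a, the beta-glucan receptor Dectin-1, was 4128 against 406 and Clec4n, the mannan receptor Dectin-2, 348 against <55.7. The Dcir receptors Clec4a2 and Clec4a3 were 498 against <55.7 and 853 against <55.7. Clec10a, a receptor for galactose-type sugars, was 367 against 74.7, Cd72, an inhibitory lectin of B cells, 364 against <55.7, and Cd93 238 against <55.7. Cd207, or langerin, ran the other way at <55.7 against 725 and was under the floor on the CD4+ and DN arrays too. Ly75, also called DEC-205, was <55.7 against 136. The Cd209 and Clec4a genes are close copies of one another, so a probe set may read more than 1 of them. In the lectin group, Cd93, Clec4a2 and Clec4n were under 4-fold with probe sets averaged, Cd93 and Clec10a with the pseudocount, and Cd93 with the floor at the 95th percentile and with the higher of the 2 arrays' own floors.

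The Ms4a genes, which encode proteins that cross the membrane 4 times, and the related pair Tmem176a and Tmem176b had 8 of 9 members at least 2-fold higher and 5 at least 4-fold higher, with 0 lower (median 3.16, and 1.95 with probe sets averaged). Tmem176b was 9303 against 631 (14.7-fold) and Tmem176a 4538 against 255. Ms4a4c was 1747 against 120, Ms4a6b 2372 against 230 and Ms4a6c 3476 against 388. All 5 were also high on the CD4+ and DN arrays, at 1973 or more. Ms4a7 (216 against 58.2), Ms4a4b (185 against <55.7) and Ms4a6d (166 against <55.7) were fainter and higher by less than 4-fold, for Ms4a4b and Ms4a6d as set against the floor. The B cell member Ms4a1 was 361 against 446. With other settings, Ms4a6b was under 4-fold with probe sets averaged.

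Promoter sequences are shown for called genes whose windows hold 1 of 5 motifs of factors known in DCs, so that the letters stand beside the values. RefSeq promoters of GRCm38.p6, 250 bases before to 50 after the first listed start, were found for 163 of the 210 higher and 114 of the 145 lower genes and for 8746 of all genes compared, among 27025 promoters in all, and both strands were searched. The composite element EICE (GGAA and GAAA with any 2 bases between), which PU.1 or SPI-B bind with IRF4 or IRF8, stood in 11 promoters of higher genes (6.75%), in 0 of lower genes, in 2.60% of the genes compared and in 2.79% of all promoters. The 11 were Bach2, Cd209a, Cd209d, Cd209e, Clec7a, Cybb, Hpse, Ifitm6, Il6st, Nudt13 and Spn. Of these, Nudt13 was under 4-fold with probe sets averaged, with the pseudocount and after quantile normalization. It was also under 4-fold with the floor at the 95th percentile and with the higher of both arrays' own floors. The 3 Cd209 genes belong to 1 family. In gapped alignments of their 300 bases 47.8% to 58.4% of positions were identical between pairs. No other promoters were aligned, so the level that unrelated promoters reach is not known. The AP-1 site (TGANTCA) stood in 10 promoters of higher genes (6.13%) and 14 of lower genes (12.3%), against 4.97% of the genes compared and 7.93% of all promoters. The interferon response core (GAAA repeated after any 2 bases) stood in 3.68% and 3.51% against 3.04% of the genes compared, the PU.1 core (GAGGAAGT) in 5.52% and 8.77% against 3.27%, and the E-box CAGGTG in 15.3% and 17.5% against 17.2%. Of these letters EICE can overlap the PU.1 core. A match is a description of letters and not a bound site. The stretches printed run from 110 bases before the start to 30 bases of the window after it, on the strand of the gene, with the match in capitals. They are, for higher genes with EICE, Cybb (chrX:9469295-9469434, minus strand), Clec7a (chr6:129472750-129472889, minus), Hpse (chr5:100719687-100719826, minus), Cd209a (chr8:3748955-3749094, minus), Cd209d (chr8:3878470-3878609, minus) and Cd209e (chr8:3854257-3854396, minus), and, for lower genes with AP-1, Cd207 (chr6:83677828-83677967, minus), Fgl2 (chr5:21372563-21372702, plus) and Notch4 (chr17:34564185-34564324, plus).
Cybb: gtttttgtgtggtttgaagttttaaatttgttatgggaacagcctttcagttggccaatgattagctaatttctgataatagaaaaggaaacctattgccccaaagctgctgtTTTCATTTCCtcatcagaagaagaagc
Clec7a: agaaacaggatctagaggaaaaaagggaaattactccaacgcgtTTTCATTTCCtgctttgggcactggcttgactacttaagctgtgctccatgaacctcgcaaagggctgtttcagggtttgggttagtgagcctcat
Hpse: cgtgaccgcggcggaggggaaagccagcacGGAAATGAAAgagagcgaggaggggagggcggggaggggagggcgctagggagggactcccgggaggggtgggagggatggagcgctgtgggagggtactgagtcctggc
Cd209a: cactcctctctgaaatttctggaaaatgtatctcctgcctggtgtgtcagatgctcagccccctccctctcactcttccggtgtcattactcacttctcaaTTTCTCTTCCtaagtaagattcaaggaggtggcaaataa
Cd209d: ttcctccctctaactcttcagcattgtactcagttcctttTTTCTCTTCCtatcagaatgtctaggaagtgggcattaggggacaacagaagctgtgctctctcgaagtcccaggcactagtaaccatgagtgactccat
Cd209e: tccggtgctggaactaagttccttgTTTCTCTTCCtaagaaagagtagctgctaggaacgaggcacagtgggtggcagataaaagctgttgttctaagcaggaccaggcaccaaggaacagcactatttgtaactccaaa
Cd207: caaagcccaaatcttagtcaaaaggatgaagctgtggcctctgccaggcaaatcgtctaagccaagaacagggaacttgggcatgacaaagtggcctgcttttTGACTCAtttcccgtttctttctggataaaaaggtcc
Fgl2: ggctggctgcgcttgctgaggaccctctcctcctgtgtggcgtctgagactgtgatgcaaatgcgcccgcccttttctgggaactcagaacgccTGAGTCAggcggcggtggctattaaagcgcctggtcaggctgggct
Notch4: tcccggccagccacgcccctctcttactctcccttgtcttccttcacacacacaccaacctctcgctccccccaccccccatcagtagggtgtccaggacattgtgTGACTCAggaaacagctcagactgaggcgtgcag
The match ends in front of the start in all of these but Cybb, where it begins 3 bases after the first start listed, and Cd209a and Notch4, where it runs across that start from 9 and 4 bases before it. The 10 letters of Cd209a also stand in Cd209d and Cd209e, 70 and 85 bases before the start.

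Cytokine and growth factor receptors differed in both directions, with 4 of 40 at least 4-fold higher and 2 lower (median 0.42). Csf1r, the receptor for the macrophage growth factors CSF1 and IL-34, was 11291 against 498 (22.7-fold), and it was high on the CD4+ and DN arrays as well (13894 and 9142). Tnfrsf13b, or TACI, a receptor for the B cell survival factors BAFF and APRIL, was 556 against <55.7. Il7r was 559 against 107, and Il6st, or gp130, the signalling chain shared by the IL-6 family, 3516 against 835. Tnfrsf4, or OX40, was <55.7 against 228 and Acvrl1, a receptor of the BMP and TGF-beta family, 126 against 603, so both were lower. The TNF-family receptor Tnfrsf18 (415 against 128), Il17ra (1029 against 367) and Crlf2, a chain of the TSLP receptor (2837 against 1142), were higher by less than 4-fold. Flt3, the receptor for the growth factor on which DCs depend, was 3749 against 2580. Kdr, the VEGF receptor, which stands in none of the lists, was 717 against <55.7 and above both other arrays (<55.7 in CD4+ and 93.8 in DN cells), and Met, the receptor for hepatocyte growth factor, was the reverse at 194 against 818. Of these receptors, Acvrl1, Il6st, Il7r and Met were under 4-fold with probe sets averaged, Acvrl1, Il7r, Met and Tnfrsf4 with the pseudocount, Tnfrsf4 with the floor at the 95th percentile and with the higher of the 2 arrays' own floors, and Acvrl1 without multi-match probe sets.

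Downstream of such receptors, the genes at least 4-fold apart were mostly higher on the CX3CR1+ array. Of 23 JAK-STAT and SOCS genes, 2 lay at least 4-fold higher and 0 lower (median 0.43). These were Stat4, which carries signals of IL-12 and type I interferon, at 882 against <55.7, and Stat5a at 364 against 71.0, while the kinase Jak3 was 183 against 66.4 and Tyk2 705 against 1939. Stat3 (983 against 542) and Cish (<55.7 against 105), an inhibitor of cytokine signals, differed less. Of 25 NF-kB genes, 1 passed, Bcl3, a nuclear partner of the p50 and p52 subunits, at 1265 against 146, and 19 of 25 lay above 0 (median 0.34). Relb was 2265 against 631, Nfkbiz 587 against 244, Malt1 528 against 257 and Nfkbie 1156 against 574, while Tnfaip2, a gene switched on by TNF, was 131 against 432. Of 41 MAP kinase and AP-1 genes, 3 lay at least 4-fold higher and 1 lower (median 0.20). Bach2, a repressor known from B cells, was 553 against 57.8, the p38 kinase Mapk11 499 against <55.7 and Jun 327 against 75.8, while Bach1 was 2002 against 712. Dusp2, a phosphatase that switches off MAP kinases, was 106 against 502, and Atf3 and Batf3 were 158 against 461 and 1028 against 2570. The AP-1 relative Jdp2, in none of the lists, was 102 against 678. For these signalling genes, Jdp2, Jun, Mapk11 and Stat5a were under 4-fold with probe sets averaged, Dusp2, Jun and Stat5a with the pseudocount, Jun after quantile normalization, and Bach2 and Jdp2 without multi-match probe sets.

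The list of protein tyrosine phosphatases and genes with related names gave 4 higher and 0 lower genes of 29 (median 0.37). Ptpro was 1548 against 114, Ptpn3 663 against 82.7, the receptor-type Ptprf 378 against <55.7, and Ptpn6 was the other one. The first 2 were also high on the CD4+ and DN arrays, whereas Ptprf was <55.7 in CD4+ and 71.0 in DN cells. Ptpn1, which acts on JAK kinases and the insulin receptor, was 2973 against 1371, the CD45 partner Ptprcap 222 against 83.5 and Hacd1 202 against <55.7. Ptprcap and Hacd1, the latter an enzyme of fatty acid elongation, are not phosphatases themselves. Enzymes that break down cyclic nucleotides split, with 1 of 15 Pde genes at least 4-fold higher and 3 lower. Pde2a was 1389 against 261, while Pde1b was 182 against 1166, Pde3b 70.9 against 370 and Pde8a <55.7 against 435. Regulators of Ras and Rap also split, with Rgl1 (888 against <55.7) and Rap1gap2 (341 against 60.2) higher and Rasgrp3 (457 against 2015) lower. The phospholipases C Plcb4 (313 against 1332) and Plce1 (<55.7 against 301), which release second messengers from membrane lipid, were lower. Here Pde2a, Plcb4, Ptpn6, Ptprf and Rgl1 were under 4-fold with probe sets averaged, Pde3b, Plcb4, Ptpn6 and Rap1gap2 with the pseudocount, and Pde2a without multi-match probe sets.

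Transcription factors of the Ets, Runx, Klf and Ikaros list stood higher, with 5 of 38 at least 4-fold higher and 0 lower, and 15 against 2 at 2-fold (median 0.64, and 0.26 with probe sets averaged). Sox4, which is needed for B cell development, was 1863 against <55.7 (at least 33.4-fold), and it was far lower on the other arrays too (121 in CD4+ and 139 in DN cells). Spib, an Ets factor of plasmacytoid DCs and B cells, was 1556 against 60.3, with 577 in CD4+ and 704 in DN cells. Klf4 was 1103 against 121, Elk3 363 against <55.7 and Cebpd 354 against <55.7. Under 4-fold but higher were Runx1 (949 against 283), Lyl1 (328 against 90.5), Bcl11a (1272 against 416), Hhex (1105 against 411) and Ikzf1 (2570 against 1106). Klf2, which keeps cells quiescent, was 198 against 697. For Runx1 the CX3CR1+ array alone was high (303 in CD4+ and 318 in DN cells). From this list, Cebpd and Elk3 were under 4-fold with probe sets averaged.

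The E protein and Id list held no shift as a whole (median -0.02, 2 of 34 at least 4-fold higher and 2 lower), yet its called members include an E protein on one side and its antagonist on the other. Tcf4, the E protein E2-2, was 3489 against 270, with 470 in CD4+ and 1135 in DN cells, and Tcf3, which encodes E2A, was 208 against 96.1. Id2, an inhibitor of E proteins, was 236 against 1389. Bhlhe40 was 720 against 158, and the nuclear receptor Nr4a2 was 479 against 1966. The clock factor Dbp (338 against 107) and the retinoid receptor Rxra (78.7 against 240) differed by less than 4-fold. Of 9 interferon regulatory factors, 1 was at least 4-fold higher and 1 lower (median -0.24). Irf4 was 880 against <55.7, Irf8 1409 against 13285 and Irf5, which acts below Toll-like receptors, 536 against 1645. Irf2bp2 (636 against 253), Irf1 (813 against 1194) and Irf7 (302 against 426) differed less. Genes of the B lineage list had 4 of 12 members at least 4-fold higher and 0 lower (median 0.49). Cd79b, a signalling chain of the B cell receptor, was 593 against <55.7, and Cd72, Blnk and Il7r, given above, were the others, while Cd79a, its partner, Pax5 and Rag1 were under the floor on both CD8+ arrays. Jchain, which joins antibody units, was 162 against 75.5. Among the factors and B lineage genes, Il7r, Irf4 and Nr4a2 were under 4-fold with probe sets averaged and Bhlhe40, Il7r and Nr4a2 with the pseudocount.

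Receptors that guide cells through the spleen stood on both sides. Of 17 chemokine and lipid receptors, 4 were at least 4-fold higher and 2 lower, and the median was 0.71, though -0.01 without multi-match probe sets. Gpr183, which senses oxysterols and places DCs in the bridging channels of the spleen, was 2690 against 118. Ccr6 was 343 against <55.7, Ccr1 274 against <55.7 and the sort marker Cx3cr1, whose difference is no finding, 9.18-fold higher. Cxcr3, the receptor for CXCL9 and CXCL10, was 122 against 1819 and Xcr1, the receptor for XCL1, <55.7 against 519. Ccr1 was under the floor on the CD4+ and DN arrays, whereas Ccr6 was brighter there (1094 in CD4+ and 957 in DN cells). Ccr2 (705 against 225), Fpr2 (208 against <55.7) and Ccr7, which takes DCs to the T cell zone (360 against 983), differed by less than 4-fold. The ligands split as well, with 2 of 25 chemokines and cytokines at least 4-fold higher and 2 lower (median -0.16). Ccl9 was 874 against <55.7 and the lymphotoxin gene Ltb 2146 against 103, while Cxcl9 was 506 against 4430 and Cxcl16 344 against 1665. Cxcl9 and Cxcr3, a ligand and its receptor, thus both stood higher on the CX3CR1- array. Il15 (<55.7 against 191), Il12b (<55.7 against 186) and Ccl22 (68.4 against 207) were lower by less than 4-fold. In the migration genes, Ccl9, Ccr1 and Cx3cr1 were under 4-fold with probe sets averaged, Ccr6 with the pseudocount, and Ccr1 with the floor at the 95th percentile.

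Other receptors coupled to G proteins, listed with G protein chains and the RGS and RAMP proteins that act on them, gave 5 of 40 genes at least 4-fold higher and 3 lower (median 0.14), and 13 against 11 at 2-fold, so they spread both ways. Hrh1, the histamine H1 receptor, was 1390 against 66.9, with 350 in CD4+ and 351 in DN cells. Gpr155 was 513 against 61.4, Gpr146 495 against 109, the regulator Rgs12 940 against 213 and Adgre1, which encodes F4/80, 578 against 143. Rgs12 changed side without multi-match probe sets (log2 difference -0.30). Gpr4, a receptor that senses acid, was 56.6 against 1200, Fzd1, a Wnt receptor, 88.2 against 402 and Rgs10 802 against 3246. Gpr65, another acid sensor, was 271 against 718, and the serotonin receptor Htr7 106 against 405, so both lay on the side of Gpr4. Cnr2, the cannabinoid receptor of immune cells, which is in none of the lists, was <55.7 against 368. Of 19 purinergic receptors and nucleotide enzymes 0 were at least 4-fold higher and 1 lower (median -0.29). It was P2ry14, a receptor for UDP-glucose, at 145 against 2327, while P2ry13, a receptor for ADP, was 208 against <55.7 and the ectonucleotidase Entpd1 109 against 265. The receptor P2ry6 (893 against 1421) and the enzymes Bst1 (68.7 against 189) and Entpd5 (162 against 264) were lower by less than 4-fold. Of these, Fzd1, Gpr146 and Rgs12 were under 4-fold with probe sets averaged, Adgre1, Fzd1, Gpr146, Rgs10 and Rgs12 with the pseudocount, Adgre1 and Rgs10 after quantile normalization, Adgre1 at equal medians, and Rgs12 without multi-match probe sets.

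**Figure D4:**
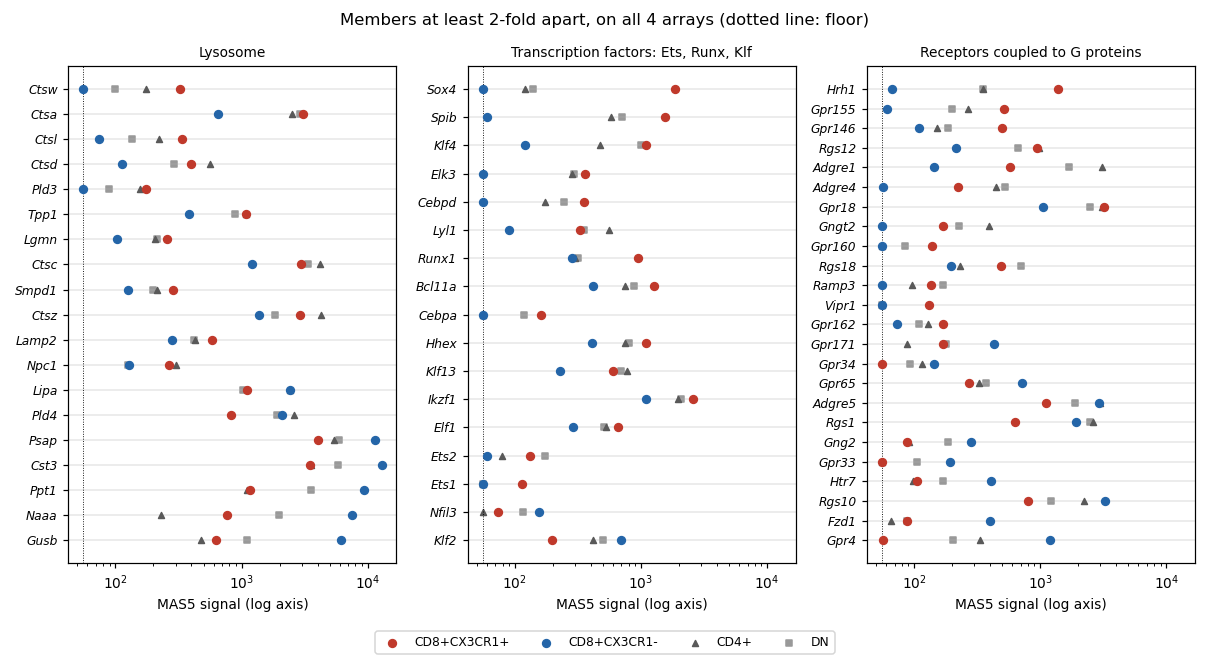
MAS5 signal (logarithmic axis) on all 4 arrays of the members at least 2-fold apart in the lysosome list, the Ets, Runx and Klf list and the list of receptors coupled to G proteins, ordered by difference; symbols and dotted line as in the plot of receptors. In the lysosome panel red lies right of blue for Ctsw down to Npc1 and left of it for Lipa down to Gusb (623 against 6165), and in the middle panel red lies right of blue in all rows but Nfil3 and Klf2.

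Integrins and adhesion molecules were split, with 2 of 40 at least 4-fold higher and 4 lower (median -0.14). Itgb3, the integrin beta chain of the vitronectin receptor, was 658 against <55.7 and Cadm3 303 against <55.7. Cadm1, its relative, was 245 against 2621, Itgae, the integrin chain CD103, 105 against 1130, the tetraspanin Cd81 786 against 4820 and Itga8 <55.7 against 288. The hyaluronan receptor Cd44 was 924 against 3696, at the threshold. L1cam, an adhesion molecule of nerve and immune cells that is in none of the lists, was 1784 against 89.8, with 335 in CD4+ and 850 in DN cells. Among 18 semaphorins, plexins and related receptors, 2 were higher and 1 lower (median 0.35). The receptors Plxnb2 and Plxnd1 were 1402 against 218 and 302 against <55.7, and the ligand Sema4f was <55.7 against 1372. Sema7a (407 against 142), Plxnc1 (2870 against 1108) and Sema4d (1134 against 472) were higher by less than 4-fold. For adhesion and guidance, Itga8 and Itgb3 were under 4-fold with probe sets averaged, Itga8 and Plxnd1 with the pseudocount, and Itga8 with the floor at the 95th percentile.

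Genes of the cytoskeleton were found on both sides. Arhgef18, a guanine nucleotide exchange factor, was 630 against 89.9, whereas Arhgap22, which switches off Rac, was 263 against 1086 and Fgd6, an activator of Cdc42, <55.7 against 332. Arhgap21 (141 against 713) and Arhgap42 (135 against 805) were lower too. The actin-binding proteins Lima1 (77.3 against 700), Dbn1 (<55.7 against 378) and Arpin, an inhibitor of the Arp2/3 complex (<55.7 against 435), were lower. Of the tubulins, Tubb6 was 64.2 against 714 and Tubb2a 81.5 against 935, and the other 7 of 9 were under 4-fold apart. Arhgap31 (106 against 416) and the Rac activator Tiam1 (151 against 564) were lower and Cdc42ep3 (526 against 157) higher by less than 4-fold. Fscn1, an actin bundler of DCs, was 6879 against 3309 and Gsn 4846 against 2322. Among cytoskeletal genes, Arhgap42, Arhgef18, Dbn1, Fgd6, Tubb2a and Tubb6 were under 4-fold with probe sets averaged, Arhgap22 and Fgd6 with the pseudocount, and Arhgap21 and Tubb2a without multi-match probe sets.

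Lysosomal genes stood on both sides, with most cathepsins higher and the largest differences in other hydrolases lower. Of 40 above the floor, 3 were at least 4-fold higher and 3 lower, and 12 and 7 at 2-fold (median 0.33). Gusb, the lysosomal beta-glucuronidase, was 623 against 6165, Naaa, which cleaves N-acylethanolamines, 772 against 7460 and Ppt1, which takes palmitate off proteins, 1175 against 9309. The saposin precursor Psap (4070 against 11496) and the cathepsin inhibitor Cst3 (3460 against 12870) lay on the same side by less than 4-fold. Cathepsins stood the other way, with Ctsw 325 against <55.7, Ctsa 3068 against 647 and Ctsl 336 against 74.0. Ctsd (395 against 113), Ctsc (2949 against 1209) and Ctsz (2931 against 1370) followed by less than 4-fold, as did the proteases Tpp1 (1080 against 385) and Lgmn (255 against 102). Of 13 cathepsins above the floor 11 lay above 0, and the others were Ctse (930 against 1371) and Ctsm (<55.7 against 65.1). Outside the list, the acid phosphatases Acp5 (1041 against 167) and Acp2 (312 against 65.9) were higher, while Laptm4b (295 against 2663) and Igf2r, the receptor that carries hydrolases to lysosomes (<55.7 against 576), were lower. Of 15 subunits of the proton pump that acidifies these organelles 0 were 4-fold apart (median -0.10), Atp6v0a2 being the furthest apart at 379 against 1354, followed by Atp6ap1 (1317 against 793) and Atp6v1b2 (494 against 814). For lysosomal genes, Acp2, Ctsa and Ctsl were under 4-fold with probe sets averaged, Acp2 and Ctsl with the pseudocount, and Ctsl without multi-match probe sets.

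Among regulators of membrane traffic a few genes were far apart. Of 46 Rab GTPases and their effectors, 1 was at least 4-fold higher and 3 were lower (median -0.29, but 0.02 with probe sets averaged). Rab7b, which acts in late endosomes, was 82.9 against 3191, Rab32, which acts at lysosome-related organelles, <55.7 against 971 and Rab19 68.0 against 311. The recycling-endosome effector Rab11fip5 was 669 against 121, though Rab11a itself was 1326 against 3520. Rab13 (<55.7 against 186), Rab11fip4 (142 against 484) and Rab43, a Golgi GTPase (2840 against 5846), were lower by less than 4-fold. Of 47 SNARE, sorting nexin and ESCRT genes, 2 were higher and 0 lower (median -0.20). Snx18, which bends membranes, was 1071 against 165, with 251 in CD4+ and 189 in DN cells, and Lyst, the gene of the beige mouse, was 1643 against 406, with 1 of its 2 other probe sets below 0 (-0.31). The sorting nexins Snx9 (983 against 304) and Snx22 (77.4 against 287) differed by less than 4-fold in opposite directions, Nbeal2 (130 against 330) and Snx8 (114 against 233) were lower, and Snx24, not in the list, was 56.3 against 503. Other regulators outside the lists were Dennd3, an exchange factor for Rab12, at 3023 against 102, and Ehd4 at 336 against 82.4. Of the traffic genes, Lyst was under 4-fold with probe sets averaged and at equal medians, Ehd4, Lyst and Rab19 with the pseudocount, and Ehd4 after quantile normalization.

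The NADPH oxidase had its chains on different sides. Cybb, the catalytic chain, was 4728 against 108, and Hvcn1, the proton channel that balances its charge, 529 against 79.5. Ncf4, the regulatory subunit p40phox, was 382 against 1811. Its level on the CD4+ and DN arrays was near that on the CX3CR1- array (1821 in CD4+ and 1573 in DN cells), so for this gene the CX3CR1+ array was the low one. Of the 19 oxidase and oxidant defence genes, 2 lay at least 4-fold higher and 2 lower, and 13 lay below 0 (median -0.36). Gclc, which makes the first step of glutathione synthesis, was 299 against 1422, and thioredoxin (Txn1) and Prdx4 were 2468 against 8014 and 233 against 485. Glrx, a glutaredoxin outside the list, was 490 against 2250. The selenium proteins Gpx4 (2552 against 980) and Selenop (1296 against 150), the latter outside the list, were higher. Here again Glrx was under 4-fold with probe sets averaged.

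Lipid genes were found on both sides. Of 41 genes of cholesterol and fatty acid handling, 2 were at least 4-fold higher and 1 lower, and 7 were at least 2-fold lower (median -0.15). Plin2, which coats lipid droplets, was 911 against 5163. Fabp5, a fatty acid carrier, was 2417 against 200, and Lpl, the lipase that frees fatty acids from lipoproteins, 297 against <55.7. Sterol synthesis enzymes such as Lss (108 against 235), Nsdhl (313 against 663) and Fdps (66.0 against 135) were lower by less than 4-fold, as was the desaturase Scd1 (<55.7 against 152). Cd36, which takes up fatty acids and oxidised lipoproteins, was 57.8 against 1454. Outside the list, enzymes of phospholipid and sphingolipid metabolism stood on both sides, the lower ones being Agpat3 (207 against 1290), Plpp1 (97.9 against 1252), Plaat3 (425 against 2992) and Sgms1, which makes sphingomyelin (96.4 against 666). Higher were Chka, a choline kinase (921 against 192), the sphingomyelinase Smpd2 (421 against 86.4) and Nceh1, a cholesteryl ester hydrolase (354 against 80.2). Cyp7b1, an enzyme that acts on oxysterols, was 974 against <55.7. This enzyme gene and the oxysterol receptor gene Gpr183 thus both stood higher on the CX3CR1+ array. Of the lipid genes, Agpat3, Lpl, Nceh1 and Sgms1 were under 4-fold with probe sets averaged, Nceh1 and Smpd2 with the pseudocount, and Nceh1 after quantile normalization.

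Of 24 eicosanoid genes 1 was at least 4-fold higher and 1 lower, and the list median of 0.51 was -0.09 with no floor. Ptgis, prostacyclin synthase, was <55.7 against 644 and under the floor on the CD4+ and DN arrays. Ptger3, a receptor for prostaglandin E2, was 275 against <55.7, while Ptger2, another one, was <55.7 against 134. The leukotriene enzymes Lta4h (4204 against 1785) and Alox5 (117 against <55.7) were higher by less than 4-fold, and Tbxas1, thromboxane synthase, was 137 against 364. Hpgd, which breaks down prostaglandins, was 373 against 173. Ptgr1 (779 against 91.9) and Cyp4f16 (2466 against 241), which break down leukotriene B4 or relatives of it, stand in none of the lists and were higher. Among these, Ptger3 was under 4-fold with probe sets averaged, with the floor at the 95th percentile and without multi-match probe sets.

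Glucose uptake and glycolysis ran in opposite directions at single steps (31 genes, 1 at least 4-fold higher and 1 lower, median -0.07). The list holds Pigq, a gene of membrane anchor synthesis that entered by an alias, in place of the isomerase of glycolysis. The glucose transporters Slc2a3 and Slc2a1 were 2505 against 66.1 and 385 against 110. The glycolytic enzymes Hk3 (168 against 830), Pfkp (923 against 3560) and Pgk1 (1941 against 5066) were lower, by 4-fold only for Hk3. Gys1, glycogen synthase, was 58.1 against 156. Of 44 solute transporters and metal genes, 1 was at least 4-fold higher and 3 lower, though 14 against 5 at 2-fold (median 0.44). Slc15a3 and Slc15a4, which carry histidine and peptides out of lysosomes, were 556 against 84.3 and 1230 against 318. The amino acid transporters Slc38a2 (2542 against 813) and Slc43a2 (1021 against 298) were higher by less than 4-fold. For iron, the transferrin receptor Tfrc was 1327 against 409 and the ferritin heavy chain Fth1 10621 against 4117, while Slc11a1, which pumps iron and manganese out of phagosomes, was 234 against 1127. Slco3a1 was 242 against 1415 and Mt1, a metallothionein, 172 against 694. Slc25a20, the carnitine carrier of mitochondria, was 647 against 2411. Of 38 ion channels and calcium genes 1 was higher, Hvcn1, and 1 lower, Trpm2, a calcium channel opened by oxidants, at 206 against 2028. The calcium release channel Itpr3 (298 against 80.9) and Kcnab2 (132 against <55.7) were higher and the channels Cacna1e (232 against 704) and Kcnn4 (641 against 1471) lower by less than 4-fold. Slc8b1, the sodium and calcium exchanger of mitochondria, outside the list, was 75.9 against 918. For transporters and enzymes, Mt1 and Trpm2 were under 4-fold with probe sets averaged, Mt1 with the pseudocount, and Mt1 and Slc2a3 without multi-match probe sets.

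Enzymes that build glycans were higher in more cases than lower, with 4 of 40 at least 4-fold higher and 2 lower, and 14 against 4 at 2-fold (median 0.45). The sialyltransferases St8sia6 and St8sia1, the latter of which makes gangliosides, were 1115 against 95.5 and 416 against <55.7, B4galt6, which makes lactosylceramide, 501 against <55.7, and Gcnt2, which branches I antigen, 360 against 78.8. Galnt7, which adds to O-linked chains, was 84.5 against 755, and St3gal5, which makes the ganglioside GM3, 344 against 1428. Outside the list, Man1a was 1154 against 148 and Man2a2 836 against 199, while Man1a2, a near relative of Man1a, was 227 against 908. Hpse, heparanase, which cuts heparan sulfate, was 1787 against 233, with 468 in CD4+ and 452 in DN cells. Npl, which breaks down sialic acid, was 352 against <55.7. The syndecan Sdc3, a heparan sulfate carrier, was 196 against 1049, but on its other probe set the log2 difference was 0.59. Of the glycan genes, Gcnt2, Man1a2, Man2a2, Sdc3 and St3gal5 were under 4-fold with probe sets averaged, Gcnt2, Man1a2, Man2a2 and St3gal5 with the pseudocount, and Man2a2 after quantile normalization.

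The early secretory pathway was lower nearly throughout, by small steps. Of 45 genes of folding and the unfolded protein response in the endoplasmic reticulum, 36 lay below 0 (median -0.58), set beside 5247 of all 10710 genes compared. At least 2-fold lower were 12 and higher 0, set beside 6.84% and 9.08% of all genes compared. The 1 past 4-fold was the disulfide isomerase Pdia5 at 203 against 3755, and it was low on the CD4+ array as well (<55.7 in CD4+ and 492 in DN cells). Creld2 (1313 against 4351), Ero1b (1247 against 3502), Pdia3 (1035 against 2890), Dnajb11 (585 against 1600), Dnajc3 (477 against 1180) and the stress factor Atf4 (1001 against 2440) were lower by less than 4-fold. Of 53 genes of translocation, glycosylation and COPII transport 47 lay below 0 (median -0.37), Sec24d the lowest at 148 against 383 and Kdelr1 an exception at 325 against 145. Subunits of the enzyme that attaches glycans, Tusc3 (125 against 282), Rpn2 (690 against 1452) and Ostc (682 against 1360), and the translocation factor Sec63 (263 against 517) were lower. For Creld2, Pdia3 and Dnajc3 the CD4+ array (1272, 940 and 452) and the DN array (1502, 1031 and 571) lay near the CX3CR1+ array.

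Proteasome subunits followed the same pattern, with 30 of 33 below 0, 0 at least 4-fold apart and a median of -0.58. Psmb7 was the furthest apart at 398 against 1296, followed by the cap subunit Psmd7 (104 against 205), the activator Psme3 (385 against 736) and the core subunits Psma5 (1984 against 3494), Psma4 (1417 against 2398) and Psma3 (4201 against 6991). The immunoproteasome subunits Psmb8 (1530 against 4194) and Psmb9 (2808 against 7126) stand in the MHC class I list, in which 15 of 18 lay below 0 and the median was -0.67. There Tap2 was 227 against 494, Tapbpl, an editor of peptide loading, 213 against 528 and Cd1d1, which presents lipids, 1024 against 4606, the 1 member past 4-fold. Nlrc5, which switches on class I genes, was 517 against 1004. B2m, the light chain of class I, was 9353 against 10437. The MHC class II list did not share the shift, with 11 of 17 above 0 and a median of 0.28. Cd74 (11832 against 13547) and H2-Ab1 (12618 against 14812) were bright and under 1.5-fold apart, H2-DMb2, a chain of the peptide-exchange factor H2-DM, was 3694 against 911 and H2-Eb2 414 against 206. H2-Ea (83.9 against <55.7) and H2-Ob (1766 against 1230) were higher by less and the regulator Rfxap (377 against 771) was lower. Of the genes of presentation, H2-DMb2 was under 4-fold with the pseudocount and Cd1d1 without multi-match probe sets.

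Mitochondria and ribosomes showed small shifts in many genes. Of 61 genes of respiration and the citric acid cycle, 50 lay below 0, 2 were at least 2-fold higher and 2 lower, and the median was -0.29. Idh2 was 1417 against 478 and Mdh2 9846 against 4494, whereas Cycs was 1119 against 2369, Sdhd 597 against 1340 and Ndufs4 991 against 1836. Pdha1, of the pyruvate dehydrogenase complex, was 1118 against 620. Of 76 mitochondrial ribosomal proteins, 53 lay below 0 (median -0.30), and Mrpl42 was 516 against 2071. All 8 chaperonin subunits above the floor lay below 0 (median -0.45), as did 7 of 9 COP9 signalosome genes (median -0.59). Cytosolic ribosomal proteins had a median of -0.17 with 0 of 33 at least 2-fold apart, and this median changed sign under 1 other setting. Rpl14 was the furthest apart at 561 against 985, and Rps3 (11000 against 14654), Rps27 (128 against 166), Rpl12 (248 against 194) and Rpl39 (222 against 180) were under 1.5-fold apart. The scaling of MAS5 fixes the mean of each array, so a shift of this size in a bright group is measured against all other genes and not per cell. Here, Mrpl42 was under 4-fold with probe sets averaged, with the pseudocount and after quantile normalization.

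**Figure D5:**
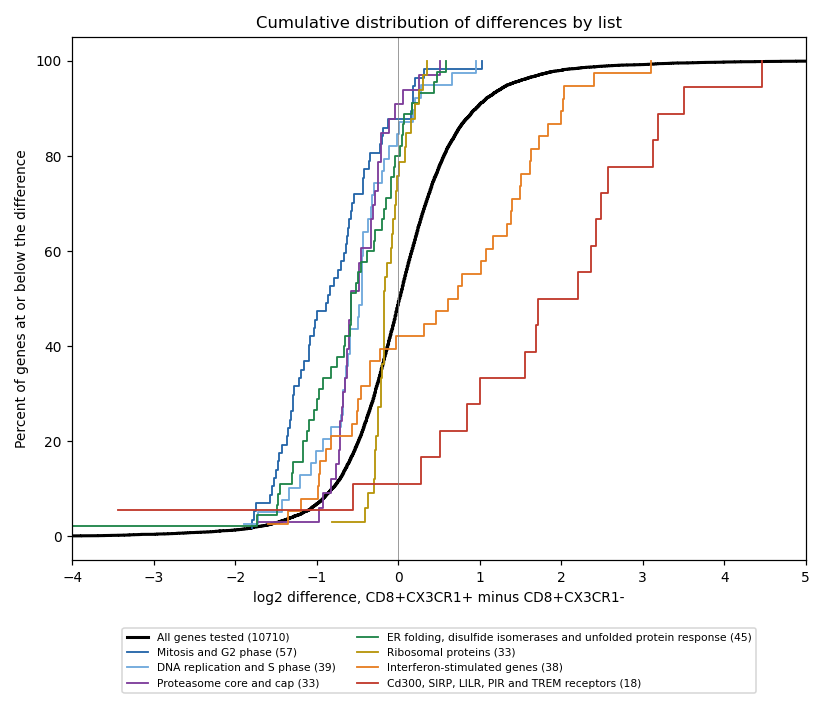
Cumulative distribution of log2 differences, CX3CR1+ minus CX3CR1-, for all 10710 genes compared (black) and for 7 lists; each curve gives the percent of its genes at or below the value on the horizontal axis. The curves of mitosis, S phase, proteasome and folding genes lie left of the black curve almost over their full length, that of ribosomal proteins rises steeply near its median of -0.17, and that of the Cd300 and related receptors lies far to the right.

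Genes of mitosis and of S phase were mostly lower, with none past 4-fold. Of 57 genes of mitosis and G2 phase, 50 lay below 0 and 27 were at least 2-fold lower against 1 higher, set beside 6.84% of all genes at 2-fold lower, and the median was -0.86 (-0.53 with probe sets averaged). Kif23, needed to part daughter cells, was 472 against 1648, the centromere histone Cenpa 116 against 397 and cyclin B2 (Ccnb2) 188 against 634. Kif20a (<55.7 against 192), Hmmr (156 against 465) and Kif11 (71.6 against 210) were next. The proliferation marker Mki67 was 1383 against 2767, Cks1b 1534 against 3717 and Espl1, the separase gene, was the exception at 583 against 285. Of 39 S phase genes, 33 lay below 0 and 7 were at least 2-fold lower against 0 higher (median -0.45), with Cdc45 <55.7 against 206, Gins2 118 against 389, Mcm10 112 against 302 Orc6 224 against 565, Dut 319 against 738 and Chaf1b 103 against 216. The DN array was near the CX3CR1- array for Mki67 (2879) and lay between both for Kif23 (1129). In the list of cell cycle exit 21 of 31 genes lay above 0, with 2 at least 4-fold higher and 0 lower (median 0.45, and 0.18 with probe sets averaged). There Ddit4, an inhibitor of mTORC1, was 1482 against 86.7, Sesn1, another one, 1134 against 281 and Txnip, which restrains glucose uptake, 2568 against 670, while Btg2 was 947 against 2601, the cell cycle inhibitor Cdkn2b <55.7 against 117 and cyclin D1 (Ccnd1) 8056 against 4397. Of 29 genes of the Bcl2 and caspase list 0 were 4-fold apart (median 0.07), and the necroptosis kinase Ripk3 was 192 against 723, Bid 153 against 447 and Casp1 498 against 181, while the regulators of death receptor signals Cflar (335 against 144), Fadd (198 against 90.3) and Xiap (679 against 325) were higher. In the cycle and survival lists, Sesn1 was under 4-fold with probe sets averaged, with the pseudocount, after quantile normalization, at equal medians and without multi-match probe sets.

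Interferon-stimulated genes lay higher in part. Of 38, 4 were at least 4-fold higher and 0 lower, and 17 against 3 at 2-fold (median 0.67). The small membrane proteins Ifitm3, Ifitm6 and Ifitm1, which block virus entry, were 3753 against 437, 1133 against 278 and 397 against 98.0, and all 5 Ifitm genes above the floor lay above 0. Ifi27 was 966 against 183, Rtp4 222 against <55.7, Isg20 243 against 67.8 and Rsad2 527 against 159. The antiviral GTPases Mx1 and Mx2 ran the other way (285 against 724 and <55.7 against 127), as did Parp12 (170 against 515), so members of the list stood on both sides. For several of them the CD4+ array was the highest of the 4, with Rtp4 at 1053 and Rsad2 at 1535. Of 10 interferon-inducible GTPases 0 were 4-fold apart (median 0.34), Ifi47 at 1189 against 383 and Gbp8 at 252 against 85.6 being furthest, with Gbp7 at 126 against 70.6 and Iigp1 at 101 against 181. Among the interferon genes, Ifitm1 and Ifitm6 were under 4-fold with the pseudocount and Ifitm1 after quantile normalization.

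Sensors of microbes stood on both sides. Of 22 Toll-like receptor genes and adaptors, 2 were at least 4-fold higher and 2 lower (median 0.01). Tlr1, which pairs with TLR2 for lipoproteins, was 745 against 75.2, Tlr5, the flagellin receptor, 262 against <55.7 and Tlr7, for single-stranded RNA, 184 against <55.7. Tlr3 was 98.4 against 1338, the profilin receptor Tlr12 <55.7 against 196, and the adaptor Tirap 82.2 against 388. Of 21 sensors in the cytosol 1 was at least 4-fold higher, Sting1, the relay of cyclic dinucleotide signals, at 2928 against 549, and 0 were lower (median 0.14). Nlrx1 (216 against 70.6), Nod1 (677 against 275) and Naip2 (252 against 120) were higher by less than 4-fold. Of 20 scavenger and dead-cell receptors and their bridges 2 were higher and 3 lower (median 0.30). Lrp1 was 321 against <55.7 and Itgb3 is given above, while Havcr2, or TIM-3, was 558 against 3150, Anxa1 733 against 4831 and Cd36 25.2-fold lower. Mertk, which takes up dying cells, was 165 against <55.7. Of the sensors and uptake genes, Anxa1, Itgb3, Lrp1, Sting1 and Tirap were under 4-fold with probe sets averaged, Tirap and Tlr5 with the pseudocount, Tlr5 with the floor at the 95th percentile, and Sting1 and Tlr3 without multi-match probe sets.

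Surface ligands that costimulate or inhibit T cells stood on both sides, with 1 of 24 such genes at least 4-fold higher and 2 lower (median 0.20). Ceacam1 was 459 against <55.7. Cd86 was 312 against 3099, and Havcr2 is given above. The coinhibitory ligands Cd274, or PD-L1 (253 against 107), and Pdcd1lg2, or PD-L2 (172 against <55.7), and Icosl (431 against 145) were higher by less than 4-fold, and Slamf8 was 1002 against 3456. NK-type lectin receptors had 2 of 7 higher and 0 lower, Klra17 at 1519 against <55.7 and Klrd1 at 3723 against 167, and a median of 0.46 that changed sign under 2 other settings. Klrk1, or NKG2D, was 240 against 340, and the rest were faint. Ctla2b, named for a T cell transcript but encoding a cysteine protease inhibitor, is in none of the lists and was <55.7 against 301. Cd7, usual on T and NK cells, was 1030 against <55.7, with 965 in CD4+ and 924 in DN cells, and Spn, or CD43, was 701 against 119. Neither is in a list. Here, Ceacam1 and Spn were under 4-fold with probe sets averaged and Ceacam1 without multi-match probe sets.

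Secreted proteins and proteases held genes far apart on each side. Of 31 serpins, cystatins and proteases, 2 were at least 4-fold higher and 4 lower (median -0.08). The ADAM-family member Adam11 was 1441 against <55.7, with 419 in CD4+ and 263 in DN cells, whereas Adam8 was 128 against 2548. Timp2, an inhibitor of matrix metalloproteases, was 538 against <55.7. The intracellular serpins Serpinb6b and Serpinb9, the latter an inhibitor of granzyme B, were 73.4 against 1384 and 174 against 1234, and Serpinf1 was 108 against 1006. Of 12 complement and coagulation genes 2 were higher and 0 lower (median 0.29, but 1.78 without multi-match probe sets), C1qb at 742 against 60.0 and Cfp, properdin, at 2988 against 553. C1qa and C1qc were 197 against <55.7 and 185 against <55.7, and the anticoagulants Pros1 and Tfpi 198 against 82.6 and <55.7 against 134. Of 22 S100, annexin and galectin genes 2 were higher and 1 lower (median 0.21, but -0.60 without multi-match probe sets), S100a4 at 8947 against <55.7 and S100a6 at 1874 against 140, the lower one being Anxa1. Lgals8 (480 against 133) and S100a10 (153 against 57.9) were higher by less than 4-fold. S100a13 ran the other way at 92.2 against 305, and Lgals3 was 4597 against 9881. Vwf, the von Willebrand factor, and Fgl2, a fibrinogen-like protein, stand in none of the lists and were <55.7 against 433 and 63.7 against 419. For secreted proteins, Anxa1, Cfp, Serpinf1 and Timp2 were under 4-fold with probe sets averaged.

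Genes of the Notch, Wnt, Hedgehog and TGF-beta pathways had 2 of 41 at least 4-fold higher and 1 lower (median 0.06). Dtx1, a Notch target, was 776 against <55.7, and it was higher still on the CD4+ and DN arrays (2895 and 3111). Notch4 was <55.7 against 546, Notch3 125 against <55.7 and Notch2, the receptor on which splenic cDC2 depend, 1741 against 1941. Ptch1, the Hedgehog receptor, was 414 against 91.8. Lefty1, an inhibitor of Nodal in none of the lists, was 503 against <55.7, with 61.6 in CD4+ and <55.7 in DN cells, while the Wnt inhibitor Dkk3 was <55.7 against 375 and the TGF-beta binding protein Ltbp2 <55.7 against 253. Smad4 was 4018 against 1909 and the TGF-beta target Tgfbi 2276 against 5753, while the Hedgehog transducer Smo (137 against <55.7) and Dtx2 (2535 against 1045) were higher by less than 4-fold. Of 43 autophagy and mTOR genes, Ddit4 alone was 4-fold apart (median 0.15), and the mTORC1 regulators Flcn (325 against 90.8) and Tsc1 (241 against 112) and the autophagy kinase Ulk1 (199 against 103) were next, while Fnip2, a partner of Flcn outside the list, was 58.5 against 724. C9orf72, which acts in autophagy, was 211 against 958. Of the pathway genes, Dtx1, Notch4 and Ptch1 were under 4-fold with probe sets averaged, C9orf72 and Ptch1 with the pseudocount, Ltbp2 with the floor at the 95th percentile, and Dtx1 without multi-match probe sets.

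Immediate early and heat shock genes, which are known to respond to tissue digestion, had 2 of 31 members at least 4-fold higher and 0 lower, and 23 below 0 (median -0.39). Klf4 and Jun were the 2, while Klf2, Atf3, Btg2 and Egr2 (58.2 against 142) were at least 2-fold lower. Sgk1, a stress-induced kinase in none of the lists, was 204 against 917. Jun and Sgk1 were under 4-fold with the pseudocount, and Jun with probe sets averaged and after quantile normalization. The part of digestion in these values was not tested.

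The lists of cell type markers were read with the sum of signals of all measured members on each array. The 18 measured markers of CD8 DCs summed to 14971 on the CX3CR1+ and 57437 on the CX3CR1- array, against 12142 (CD4+) and 21418 (DN), and 5 of them were under the floor on the CX3CR1+ array and 0 on the CX3CR1- array. All 18 were lower on the CX3CR1+ array, 11 of them at least 4-fold, from Rab7b (38.5-fold lower) and Gcsam (<55.7 against 1650) to Batf3 and Cd24a (2280 against 3593), which were under 4-fold. The 18 markers of CD4 and CD11b DCs summed to 45532 and 4720, against 44938 and 33629. Among these markers Csf1r made up 11291 of the first sum, Tmem176b 9303, S100a4 8947 and Tmem176a 4538. Of 16 above the floor 11 were at least 4-fold higher and 0 lower, S100a4 the furthest apart (at least 161-fold), and the 11 include the sort marker Cx3cr1, whereas Notch2, Esam (167 against 135) and Cd4 (93.3 against <55.7) were under 4-fold and Itgam, the CD11b chain, was under the floor on both. The 18 markers of plasmacytoid DCs summed to 12807 and 3065, against 7087 and 6947, and 11 of 16 above the floor were at least 2-fold higher on the CX3CR1+ array, 4 of them at least 4-fold. The 4 were Klra17, Spib, Tcf4 and Zeb2 (230 against <55.7). Bst2 was 660 against 236 and Atp1b1 265 against 77.7, while Ly6d and Pacsin1 were under the floor on both CD8+ arrays. Of the markers named here, Cx3cr1 and Zeb2 were under 4-fold with probe sets averaged and Zeb2 with the pseudocount, with the floor at the 95th percentile, with the higher of the 2 arrays' own floors and after quantile normalization. The called markers Sirpa, Irf4 and Fgd6, named earlier, were under 4-fold with probe sets averaged as well.

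Markers of other spleen cells differed as follows, and their part in the results above was not tested. Of 12 red pulp macrophage markers above the floor, 8 were at least 2-fold higher and 1 lower (median 1.61), with sums of 3043 and 2158 over 14 markers. The 14 include Trh, a hormone gene that entered by an alias in place of the transferrin gene Trf. Among them Fcna was 193 against <55.7, the lineage factor Spic was 56.9 against 74.1 and Vcam1 291 against 513, and Hmox1 was <55.7 against 71.6, so that these last 3 were not higher on the CX3CR1+ array. Monocyte markers summed to 26931 and 13206, of which Csf1r made up 11291 and 498 and Ms4a6c 3476 and 388. Ccr2 and Ace (150 against <55.7) were higher too, and Treml4 and Cd14 (449 against 1089) were lower. Csf1r also stands in the list of CD4 and CD11b DC markers. Of 9 B cell markers 4 were under the floor on the CX3CR1+ and 5 on the CX3CR1- array, with sums of 1604 and 963, most of it from Ms4a1 and Cd22 (396 against 269) on both arrays and Cd79b on the CX3CR1+ array. T cell markers summed to 342 and 195, with Cd5 at 117 against <55.7 and Cd3e at 65.8 against <55.7, and NK cell markers to 4138 and 400, of which Klrd1 made up 3723 and 167, Gzma was 115 against <55.7, and Ncr1 was under the floor on both. All 10 neutrophil and erythroid markers were under the floor on the CX3CR1+ array and 7 on the CX3CR1- array, where S100a8 was 82.1 and Ngp 82.0.

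Some called genes lie side by side in the genome. Among 18145 named genes set in the order of the RefSeq table, 13 runs of adjacent genes were at least 4-fold apart in the same direction. They hold 28 of the 355 called genes. How many such runs an arbitrary gene order would give was not computed. Runs of higher genes were Cd209a, Cd209e and Cd209d, Ifitm1, Ifitm3 and Ifitm6, Cd300a with Cd300lb, Clec4a2 with Clec4n, Tmem176a with Tmem176b, Lst1 with Ltb, Mapk11 with Plxnb2, and Pdzd4 with L1cam. Runs of lower genes were Serpinb6b with Serpinb9, Tlr3 with Fam149a, Naaa with Ppef2, Gclc with Lrrc1, and Id2 with the predicted gene Gm36723. Several of the first set are duplicated families, whereas Tlr3 (13.6-fold lower) and Fam149a (<55.7 against 668), Naaa and Ppef2 (<55.7 against 365), and L1cam and Pdzd4 (506 against 59.9) encode proteins of different kinds. Of the genes in these runs, Cd300a, Clec4a2, Clec4n, Fam149a, Mapk11 and Pdzd4 were under 4-fold with probe sets averaged, Cd300lb, Ifitm1, Ifitm6, Lrrc1 and Lst1 with the pseudocount, Cd300lb with the floor at the 95th percentile, Ifitm1 after quantile normalization, Lst1 at equal medians, and Tlr3 without multi-match probe sets.

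Further genes at least 4-fold apart stand in none of the lists, 103 higher and 91 lower of 9067 such genes compared. Among the brightest higher ones were Marveld1 (7691 against 1311), the choline transporter Slc44a2 (7044 against 1656), Tgm2, a transglutaminase that links proteins (2464 against 245), and Lpp, a protein of focal adhesions (2262 against 288). Wfdc17 (1246 against 98.0), Mcemp1 (1406 against 130) and the transporter partner Emb (1208 against 145) were higher there and on the CD4+ array (1687, 2251 and 2309). The endocytic adaptor Dab2 was 583 against <55.7, with 74.8 in CD4+ and 138 in DN cells, so the CX3CR1+ array alone was high. The same held for Best1 (238 against <55.7, with <55.7 in CD4+ and <55.7 in DN cells), the endothelial diaphragm protein Plvap (224 against <55.7, with <55.7 in CD4+ and <55.7 in DN cells), Xkrx (338 against <55.7, with <55.7 in CD4+ and <55.7 in DN cells) and Septin4 (265 against <55.7, with <55.7 in CD4+ and <55.7 in DN cells). The copper oxidase Cp, or ceruloplasmin, was 260 against <55.7. Ripor2 (1321 against 98.8), the membrane protein Gpm6b (652 against <55.7), Tent5a (568 against <55.7) and Vopp1 (685 against <55.7) were higher as well. Of these genes, Cp, Dab2, Emb, Marveld1, Ripor2, Septin4 and Slc44a2 were under 4-fold with probe sets averaged, Cp and Septin4 with the pseudocount, Best1, Cp, Plvap and Septin4 with the floor at the 95th percentile, Best1 and Plvap with the higher of the 2 arrays' own floors, Plvap after quantile normalization, and Dab2 and Gpm6b without multi-match probe sets.

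Of enzymes and regulators outside the lists, the collagen receptor kinase Ddr1 (781 against 96.4), the elongation factor kinase Eef2k (637 against 128), the cytidine deaminase Apobec1 (494 against 79.8) and the kynureninase Kynu (657 against 163) were higher. For Kynu the other probe set gave a log2 difference of -0.06, and for Ddr1 the lowest of its 6 others gave -0.28. So were the chromatin proteins Cdyl2 (801 against 97.2), Kdm5b (541 against 98.1), Phc1 (563 against 111) and Arid5b (314 against 61.5), and the GTPase Rras2 (738 against 172) with the Arf regulator Acap1 (1826 against 305). The ubiquitin ligases Rnf144b (336 against 2291), Rnf157 (99.0 against 597) and Rnf217 (<55.7 against 348) were lower, whereas Rnf122 was 267 against <55.7. Lower too were the mitotic kinase Nek6 (272 against 1240), the sulfotransferase Sult1a1 (<55.7 against 546), the creatine enzyme Gatm (<55.7 against 408), the pyrophosphatase Ppa1 (409 against 2114) and Cyb5r1 (282 against 1720). Aif1, or IBA1, an actin-bundling protein used as a macrophage marker, was lower at 413 against 3271, and so was the membrane-curving protein Pstpip2 at 119 against 519. Fnbp1 (324 against 1914), the podosome protein Sh3pxd2b (218 against 1206), Septin3 (96.8 against 734) and Lsr, a protein of tricellular junctions (58.8 against 561), were lower. Among genes high on the CX3CR1- array alone were Ocstamp, known from the fusion of osteoclasts (70.3 against 882, with 161 in CD4+ and 162 in DN cells), P3h2, a collagen hydroxylase (81.4 against 820, with <55.7 in CD4+ and <55.7 in DN cells), Fndc7 (<55.7 against 657, with <55.7 in CD4+ and <55.7 in DN cells), Mab21l3 (<55.7 against 496, with <55.7 in CD4+ and <55.7 in DN cells), Hepacam2 (<55.7 against 432, with <55.7 in CD4+ and <55.7 in DN cells) and Cystm1 (<55.7 against 560, with <55.7 in CD4+ and 81.8 in DN cells). The long noncoding RNA Morrbid, known to restrain the death factor BIM, was <55.7 against 340. The oxidation resistance factor Ncoa7 was 710 against 4603, with a log2 difference of 0.34 on its other probe set, and the selenocysteine elongation factor Eefsec 165 against 1281. Outside the lists, Acap1, Arid5b, Cdyl2, Cystm1, Ddr1, Eef2k, Kdm5b, Kynu, Lsr, Morrbid, Ncoa7, Nek6, Pstpip2, Rnf122, Rnf144b, Rnf157, Rnf217, Rras2 and Septin3 were under 4-fold with probe sets averaged, Arid5b, Eef2k, Kdm5b, Kynu, Phc1, Pstpip2, Rnf122 and Rras2 with the pseudocount, Rnf122 with the floor at the 95th percentile, Kynu after quantile normalization and at equal medians, and Eef2k, Rnf157 and Rnf217 without multi-match probe sets.

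A family seen only in small steps was that of the zinc finger proteins. Of 270 genes named Zfp, Zbtb, Zkscan or Zscan above the floor, 28 were at least 2-fold higher and 1 lower, against 9.08% and 6.84% of all genes compared, and 189 lay above 0 (median 0.23). The 1 past 4-fold was Zfp369 at 398 against 96.7. Genes for histone lysine methyltransferases (13 of 18 above 0, median 0.54) and chromodomain helicases (7 of 9, median 0.58) lay on the same side. These 3 are among 22 groups of genes with a shared name that were chosen with values in view. In these families Zfp369 was under 4-fold with probe sets averaged, with the pseudocount and after quantile normalization.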

How the data were processed

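RNA of 4 sorted spleen DC subsets was measured on Affymetrix mouse arrays, 1 array per subset. The deposited values are probe set intensity values on a linear scale, made by the authors with MAS5 per the submitters' processing notes, which name no version. MAS5 scales each array as a whole, and the 2% trimmed mean of the deposited values was 150.0 on all 4 arrays, so differences in RNA per cell cannot be seen. No other scaling was applied.

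Of 45101 probe sets, 34945 carry 1 gene symbol in the platform annotation (932 carry several, 9160 none, and 64 are controls), and these alone were named. Where a gene has several probe sets, the one brightest on average (mean log2 signal, 4 arrays) was taken. Signals under the floor were raised to it. The floor was the pooled 90th percentile of 127 probe sets of chemosensory receptor and Krtap genes; 1 pseudogene probe set that fits the name pattern was left out, and keeping it is an added alternative. Differences are log2 CD8+CX3CR1+ minus CD8+CX3CR1-, over genes above the floor on at least 1 of these 2 arrays, and a gene was called at 4-fold. With 1 array a group there is no test, and the number of arrays limits the precision.

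The arrays, members and gene lists were chosen with earlier results of these data known, and 1 of the 65 lists is not reported here. The text names the sort markers, in each list the members past 4-fold and up to 6 with the largest differences, some bright members under 1.5-fold apart, and, over all genes, on each side, ranks 9 to 30 by fold among genes measured on each array and 6 to 20 by signal among bounds. Families by shared name, motifs, shown promoters and further genes in no list were chosen after their values were seen. Promoters come from RefSeq, GRCm38.p6, by symbol, and no source used here states the build of the array annotation. The calling was tested on simulated data with known folds. Python 3.11.15, numpy 2.4.6, pandas 2.3.3 and matplotlib 3.10.9 were used.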

Additional observations from a re-analysis of the deposited data

How the results depend on the processing

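No paired analysis was possible because each group has 1 array and the titles carry no replicate numbers. The 210 higher and 145 lower genes became 1660 and 1520 with no floor, 973 and 733 at 2-fold and 82 and 47 at 8-fold, and averaging the probe sets of a gene left 116 higher genes. Other scalings, floors and probe set choices kept both counts within 1.5 times, among them the floor that keeps 1 pseudogene probe set (55.5, with 211 and 146 genes), an alternative chosen after seeing the data. Of the 355 called genes, 157 stayed past 4-fold under every setting that gives a value. Without _x, _s and _a probe sets the log2 difference changed sign for E230029C05Rik (-0.23), Rgs12 (-0.30), Snhg10 (-0.53) and Tex9 (-0.81), called higher, and for Rmi1 (1.30), called lower. The median of chemokine and lipid-guided migration receptors (-0.01) also changed sign there. That of the S100, annexin and galectin list went from 0.21 to -0.60. Only 51 of the 65 list medians kept their sign under all 9 other settings. With no floor the median of the eicosanoid list was -0.09. The cause was not tested. Signals near the floor limit the folds of faint genes.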
